A study of Mus musculus with 2 samples.

Results

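The 10 genes described here encode regulators of the G1 phase of the cell cycle. They are *Ccnd2*, *Ccnd3*, *Cdk4*, *Cdk6*, *Cdkn1b*, *Cdkn2c*, *Cdkn2d*, *Rb1*, *Rbl1* and *Rbl2*, which make up 10 of the 23282 gene rows in the deposited tables. Their rows were taken by gene symbol, not by a cut on counts. Earlier results of these data were known when the genes were chosen. RNA-seq had been performed on 1 library of control Th17 cells and 1 library of RV-Cre-transduced Th17 cells. Both came from naïve CD4 T cells of the spleen of *Fak* fl/fl mice, females of 6 to 8 weeks by the methods of the study for naïve T cell isolation. Cells were stimulated on plates with anti-CD3ε at 10 μg/ml plus anti-CD28 at 5 μg/ml in solution. After 20 to 24 h they received either the control retrovirus MIEG3 or RV-Cre, and they were then kept for 3 days with IL-6 at 50 ng/ml, human TGFβ1 at 1 ng/ml, TNFα at 1 ng/ml, IL-1β at 2 ng/ml and antibodies to IFNγ and IL-4 at 5 μg/ml each, and sorted for GFP. The control cells thus carried the floxed allele and a retrovirus but no Cre, although their genotype label reads WT. Cre was expressed only where *Fak* was floxed, so the effects of Cre and of *Fak* loss cannot be told apart in these libraries. How many mice went into a library is not given in the sources used here.

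D-type cyclins bind and activate the kinases CDK4 and CDK6 when a cell receives growth signals, which in T cells come from the antigen receptor, CD28 and cytokines. The active kinases phosphorylate the pocket proteins RB1, p107 and p130, which otherwise hold E2F transcription factors in check, and the released E2F factors turn on genes for DNA replication. INK4 proteins block CDK4 and CDK6 directly, whereas p27, the product of *Cdkn1b*, blocks mainly CDK2 complexes. Naïve T cells are known to keep p27 and p130 high while they rest.

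The libraries held 13799264 counted reads (control) and 12305010 counted reads (RV-Cre). TMM factors served to scale the counts, which were set against each other as log2(normalized count + 1). Genes entered when this log2 value reached at least 4 in at least 1 library. They counted as called when the log2 values differed by 1 or more, a ratio of at least 2 with 1 added to each normalized count. With 1 library per condition there is no replicate check, no test and no p-value, and the 95% intervals given for ratios cover counting error only. Among the 12112 genes compared, those at least 2-fold higher with RV-Cre made up 14.2% and those at least 2-fold lower 12.3%. *Ptk2*, the gene of FAK, had 110 reads (control) and 31 reads (RV-Cre), a ratio of 0.318 (95% interval 0.206 to 0.477). Reads of this 3′ method start near the end of the transcript, so they measure the level of *Ptk2* RNA and do not check the deletion itself. All 8 T cell markers with a row were well detected, with 713 to 4959 reads (control) and 750 to 7475 reads (RV-Cre), and summed normalized reads of 22396 and 29665. *Cd4* had 1489 and 1342 reads (ratio 1.02), while *Cd3d* and *Cd3e* were at least 2-fold higher with RV-Cre (ratios 2.30 and 2.24) and *Cd5* was lower (ratio 0.504). The Th17 markers *Il17a* and *Il17f* had ratios of 0.274 and 0.212 with RV-Cre over control, and *Il23r* had only 9 and 10 reads. The markers of most other cell types were scarce, those of CD8 T cells less so (*Cd8a* at 322 and 580 reads), and the sums of all but the NK cell markers were higher with RV-Cre. The summed normalized reads were 418 and 907 for the 2 CD8 T cell markers, 39.5 and 115 for the 5 B cell markers (*Pax5* at 0 in both libraries), 54.6 and 227 for the 6 macrophage and granulocyte markers (*Adgre1* at 0 in the control library), 11.3 and 8.50 for the 2 NK cell markers (*Ncr1* at 0 in the control library and *Klrb1c* at 0 in the RV-Cre library), 31.1 and 192 for the 2 erythroid markers, and 11.3 and 78.6 for the 3 fibroblast markers (*Col1a2* at 0 in the control library). Among the macrophage and granulocyte markers, *Lyz2* (22 and 7 reads) and *Itgam* (7 and 3 reads) were lower with RV-Cre, and the others were higher. The B cell marker *Cd79b* (18 and 11 reads) was also lower. The ribosomal RNA gene *Rn45s* took 8.50% of control reads and 14.6% of RV-Cre reads. The part of these differences in the results below was not tested.

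Of the G1 regulators, *Cdk6* was at least 2-fold lower in RV-Cre-transduced Th17 cells, and the others differed by less than 2-fold, *Ccnd2* hardly at all. All 10 passed the expression minimum. *Cdk6* alone was at least 2-fold lower, 1 of 10 beside 12.3% of all genes compared, and 0 of 10 were at least 2-fold higher, beside 14.2%. At a fold of 1.5, 3 of the 10 were lower (*Cdk6*, *Cdkn2c* and *Rbl1*), beside 22.9% of all genes, and 0 were higher, beside 23.5%. The shares of genes called at 2-fold thus lay close to the background or below it. At a fold of 1.5 the share lower lay somewhat above the background and the share higher below it, with only 10 genes behind each share. With a stricter minimum of 8 on the log2 scale, 8 of the 10 passed, and 0 of these were at least 2-fold higher, beside 4.62% of all genes, and 0 at least 2-fold lower, beside 9.73%. The counting interval lay wholly below a ratio of 1 for 6 genes (*Ccnd3*, *Cdk4*, *Cdk6*, *Cdkn2c*, *Rb1* and *Rbl1*), beside 38.1% of all genes, and wholly above 1 for 3 genes (*Cdkn1b*, *Cdkn2d* and *Rbl2*), beside 36.7%. Only *Ccnd2* had an interval that included 1, as did 25.3% of all genes. The median log2 ratio of the 10 genes was -0.33 and that of all genes compared -0.01. Scaling to *Gapdh* instead, chosen after seeing the data, shifted these medians to 0.091 and 0.43, so that the sign of the first is set by the scaling, while the first minus the second was -0.34 (-0.32 with TMM). *Ccnd2*, *Cdkn1b*, *Cdkn2d* and *Rbl2* lay above the median of all genes and the other 6 below it under each scaling and pseudocount run. In a bulk library, a change in RNA per cell cannot be told apart from a change in the share of cells, such as dividing cells, that hold the RNA.

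**Figure D1:**
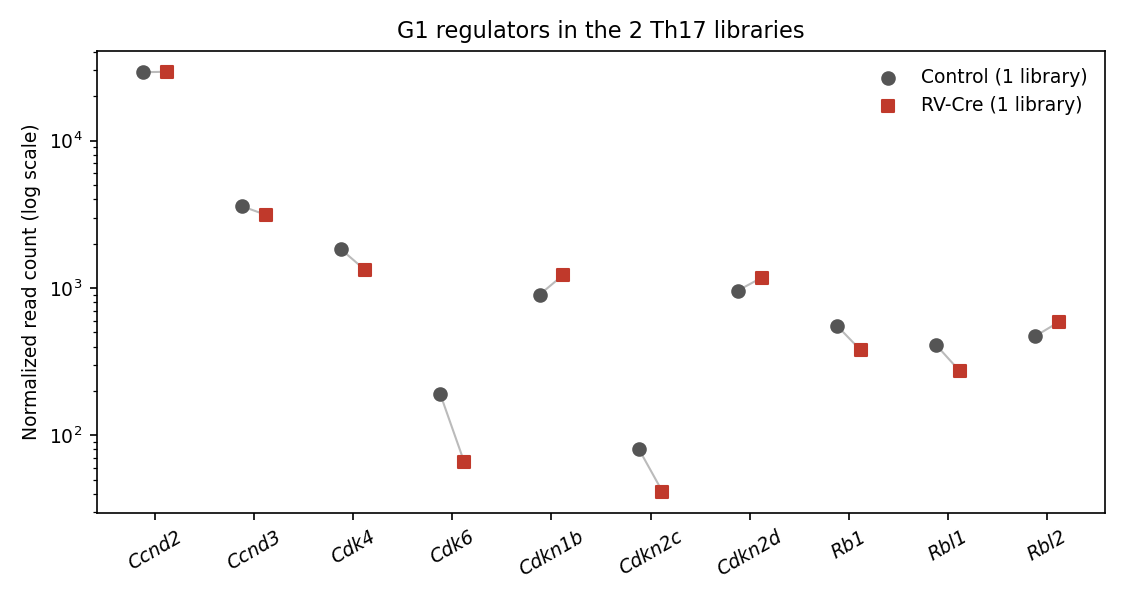
Normalized read count (log scale) of each of the 10 G1 regulators in the control library (grey circles) and the RV-Cre library (red squares), 1 library each, joined by a line. *Ccnd2* stands highest at 29097 and 29321 normalized reads, and *Cdk6* and *Cdkn2c* stand lowest and have the steepest lines downward.

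**Figure D2:**
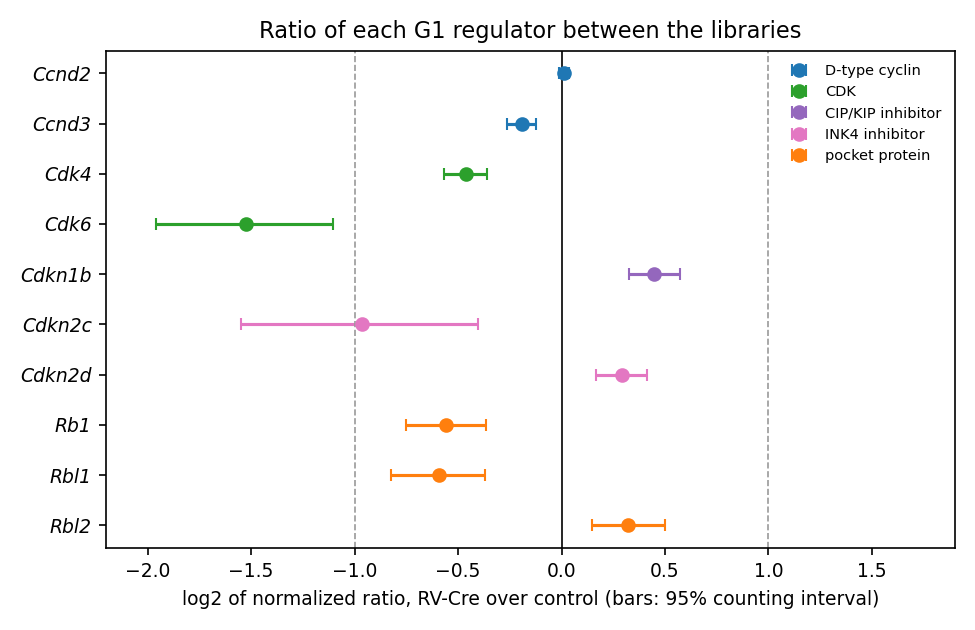
Log2 of the normalized ratio of the RV-Cre library over the control library for each gene, coloured by role, with bars for the 95% counting interval and dashed lines at 2-fold. *Cdk6* lies beyond the left dashed line at a ratio of 0.348, *Ccnd2* sits at 1.01, and *Cdkn1b*, *Cdkn2d* and *Rbl2* lie to the right of 0.

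**Figure D3:**
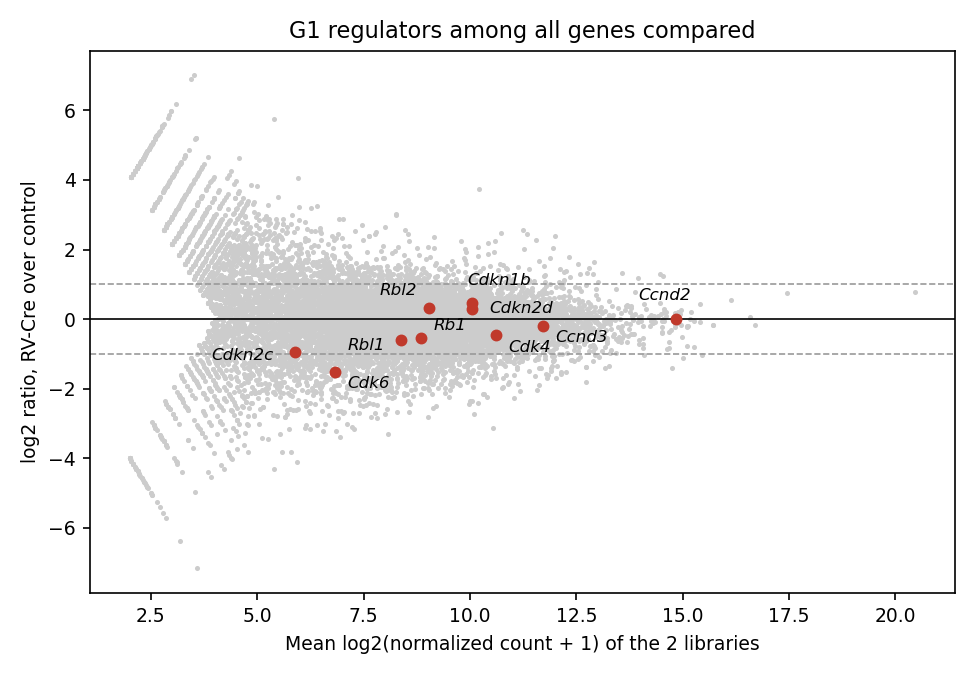
Log2 ratio of the RV-Cre library over the control library against the mean log2(normalized count + 1) of both libraries, for all 12112 genes compared (grey) and the 10 G1 regulators (red), with dashed lines at 2-fold. All of the regulators except *Cdk6* lie between the dashed lines, and the grey cloud widens toward genes of few reads.

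The D-type cyclins were the most abundant of these genes, and their levels were close between the libraries. *Ccnd2* (mm10 chr6:127125162-127152188, minus strand) encodes cyclin D2, which growth signals induce in lymphocytes. It had 30910 reads (control) and 27602 reads (RV-Cre), or 2240 and 2243 CPM, which is the count scaled to the library total. The normalized ratio was 1.01 (95% interval 0.991 to 1.02), and its log2 ratio of 0.01 turned to -0.0028 with DESeq2 size factors and reached 0.43 with scaling to *Gapdh*, the size of the shift of all genes under that scaling. With library totals without *Rn45s* the log2 ratio was 0.10, and with quantile normalization 0.15, both beyond the counting interval. Relative to the median of all genes these 2 values were 0.012 and 0.13. *Ccnd3* (chr17:47505051-47599689, plus strand) encodes cyclin D3, which lymphocytes use as they mature and divide. It had 3802 and 2948 reads, or 276 and 240 CPM, a ratio of 0.875 (95% interval 0.834 to 0.918). This is a small difference, beyond counting error and far from 2-fold, at a log2 ratio of -0.19 with TMM. With scaling to *Gapdh*, which shifts all genes upward, the value was 0.23, and relative to the median of all genes it was -0.18 with TMM and -0.20 with *Gapdh*. The 3′ end of *Ccnd3* overlaps *Bysl* on the other strand, whether strand was used in counting is not given in the sources used here, and the reads of *Ccnd3* per read of *Bysl* were 0.790 (control) and 0.788 (RV-Cre). Whether the count of *Ccnd3* holds reads of *Bysl* was not tested. The 3′ end of *Ccnd2* likewise overlaps an antisense gene, *Gm43126*, which has no row of its own. The remaining D-type cyclin, *Ccnd1*, which T cells hardly use, had 27 and 65 reads, which gives a ratio of 2.72 (95% interval 1.71 to 4.43). It made up only 0.0777% (control) and 0.212% (RV-Cre) of D-type cyclin reads.

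The kinases that these cyclins activate were both lower in the RV-Cre library. Relative to the median of all genes, the log2 ratio of *Cdk4* was -0.45 with TMM and -0.47 with scaling to *Gapdh* (-0.46 and -0.044 before that median is subtracted), and that of *Cdk6* was -1.50 and -1.52. *Cdk4* (chr10:127063535-127067288, plus strand), the more abundant of them, had 1936 reads (control) and 1245 reads (RV-Cre), or 140 and 101 CPM, a ratio of 0.726 (95% interval 0.675 to 0.780). Its 3′ end overlaps *Tspan31* on the other strand, which had 332 and 113 reads, so that *Cdk4* had 5.83 and 11.0 reads per read of *Tspan31*. *Cdk6* (chr5:3341004-3531008, plus strand), whose product pairs with the same cyclins and is abundant in blood cells, had 201 and 62 reads, or 14.6 and 5.04 CPM. The ratio was 0.348 (95% interval 0.257 to 0.465), with the whole 95% interval beyond 2-fold, although the 99% interval reached 0.506. Of all genes compared, 6.04% had a log2 ratio at or below its value of -1.51. Because fewer reads stand behind *Cdk6*, its interval is wider than that of *Cdk4*, yet the 2 intervals do not overlap. The 250 bases before the start that the RefSeq promoter table gives for *Cdk6* (GRCm38.p6, chr5:3343643-3343892, plus strand) are shown because this gene differed most. That start lies inside the range given above for the gene, not at its first base. They are printed 5′ to 3′ in lower case, and here and below capitals would mark a match to one of the motifs named with the pocket proteins. There is none in this stretch.
*Cdk6*: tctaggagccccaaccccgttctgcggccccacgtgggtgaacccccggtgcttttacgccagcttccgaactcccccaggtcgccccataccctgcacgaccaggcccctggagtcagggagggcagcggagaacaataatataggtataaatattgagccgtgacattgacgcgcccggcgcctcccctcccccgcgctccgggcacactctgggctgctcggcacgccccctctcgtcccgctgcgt

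The CDK inhibitors did not move as a group. *Cdkn1b* (chr6:134920401-134925525, plus strand), which encodes p27, had 954 reads (control) and 1154 reads (RV-Cre), or 69.1 and 93.8 CPM, a ratio of 1.37 (95% interval 1.25 to 1.49). This was the highest ratio of the 10 genes, and 71.9% of all genes compared lay at or below it, so that a ratio of this size was common in these libraries. *Cdkn2d* (chr9:21288459-21291421, minus strand), which encodes the INK4 protein p19, had 1018 and 1103 reads, or 73.8 and 89.6 CPM, a ratio of 1.22 (95% interval 1.12 to 1.33). *Cdkn2c* (chr4:109660876-109666756, minus strand), which encodes the INK4 protein p18, went the other way, with 86 and 39 reads, or 6.23 and 3.17 CPM. Its ratio was 0.512 (95% interval 0.341 to 0.755), just short of the 2-fold threshold, and the interval reaches to both sides of that threshold. With quantile normalization the log2 ratio of *Cdkn2c* was -1.05, at least 2-fold lower, as were 13.4% of all genes. Of the 4 remaining inhibitor genes, 3 were nearly silent. *Cdkn2a* had 2 and 0 reads, *Cdkn2b* 9 and 3 reads and *Cdkn1c* 8 and 2 reads, all under the expression minimum, where a count of 0 allows up to 3 reads. *Cdkn1a*, which encodes p21, was expressed, with 607 and 684 reads and a log2 ratio of 0.35 (95% interval of the ratio 1.14 to 1.42). The promoter of *Cdkn1b* (chr6:134920151-134920400, plus strand) is shown because this gene had the highest ratio, and it holds no match to the motifs searched.
*Cdkn1b*: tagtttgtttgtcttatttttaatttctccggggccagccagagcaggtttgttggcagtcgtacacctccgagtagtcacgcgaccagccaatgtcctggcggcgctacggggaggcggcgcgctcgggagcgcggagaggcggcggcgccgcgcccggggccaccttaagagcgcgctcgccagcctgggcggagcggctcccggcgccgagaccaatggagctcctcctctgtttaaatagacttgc

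Among the pocket proteins, *Rb1* and *Rbl1* were lower and *Rbl2* was higher in the RV-Cre library. Relative to the median of all genes, the log2 ratios with TMM and with scaling to *Gapdh* were -0.55 and -0.56 for *Rb1*, -0.58 and -0.60 for *Rbl1*, and 0.33 and 0.31 for *Rbl2*. *Rb1* (chr14:73192858-73325951, minus strand), which encodes the retinoblastoma protein, had 589 reads (control) and 355 reads (RV-Cre), or 42.7 and 28.9 CPM, a ratio of 0.680 (95% interval 0.595 to 0.777). *Rbl1* (chr2:157145893-157204534, minus strand) encodes p107, which dividing cells make under E2F control. It had 436 and 256 reads, or 31.6 and 20.8 CPM, a ratio of 0.663 (95% interval 0.566 to 0.775). *Rbl2* (chr8:91070057-91123844, plus strand) encodes p130, the pocket protein of resting cells, which joins E2F4 and the MuvB proteins in the DREAM repressor complex. It had 499 and 553 reads, or 36.2 and 44.9 CPM, a ratio of 1.25 (95% interval 1.11 to 1.41). The intervals of *Rb1* and *Rbl1* overlap each other almost wholly, and neither overlaps that of *Rbl2*. The 3′ end of *Rb1* overlaps *Rcbtb2*, with 185 and 73 reads, and that of *Rbl2* overlaps *Aktip*, with 551 and 548 reads, each on the other strand. *Gm17233*, which has no row, overlaps the 3′ end of *Rb1* on its own strand. Reads of *Rb1* per read of *Rcbtb2* were 3.18 and 4.86, a factor of 1.53 (95% interval 1.12 to 2.10). Reads of *Rbl2* per read of *Aktip* were 0.906 and 1.01, and the interval of the change in this ratio, 0.937 to 1.32, includes 1. Whether the count of *Rb1* holds reads of *Rcbtb2*, or that of *Rbl2* reads of *Aktip*, was not tested.

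The promoters of *Rbl1* and *Rbl2* are printed because these pocket proteins differed in opposite directions. Promoters were found in the RefSeq table for 8 of the 10 genes (not for *Ccnd2* or *Rb1*). The 250 bases before each start were searched on both strands for the E2F motifs TTTCCCGC, TTTCGCGC, TTTGCCGC and TTTGGCGC, for the CHR motifs TTTGAA and TTCGAA, which the MuvB proteins bind, and for the FOXO motif TGTTTAC. Of the 32851 promoters in the table, 1.86% held an E2F motif, 17.1% a CHR motif and 3.17% the FOXO motif. Counted by gene, of 27025 genes 583 held an E2F motif, 5284 a CHR motif and 956 the FOXO motif in a promoter. An E2F motif was present in 1 of the 8 genes, *Rbl1*, where TTTCGCGC lies 18 to 11 bases before the start (window chr2:157204535-157204784, minus strand). *Rbl2* held TTTGAA on the opposite strand, 201 to 196 bases before the start (window chr8:91069807-91070056, plus strand). A FOXO motif was found in a promoter of *Ccnd3*. A match is a description of these letters and not a measured binding site, and its absence says only that the letters are not in this window. Matches are in capitals below.
*Rbl1*: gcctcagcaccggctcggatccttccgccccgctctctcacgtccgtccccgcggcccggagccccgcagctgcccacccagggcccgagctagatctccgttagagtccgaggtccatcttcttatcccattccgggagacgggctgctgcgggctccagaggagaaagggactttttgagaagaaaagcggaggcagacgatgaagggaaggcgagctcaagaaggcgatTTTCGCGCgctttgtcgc
*Rbl2*: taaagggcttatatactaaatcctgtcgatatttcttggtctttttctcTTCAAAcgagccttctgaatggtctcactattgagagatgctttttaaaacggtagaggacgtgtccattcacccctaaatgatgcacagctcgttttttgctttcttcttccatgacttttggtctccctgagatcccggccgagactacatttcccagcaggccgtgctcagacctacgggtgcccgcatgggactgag

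The order of the levels was largely shared. Since reads of a 3′ method do not grow with transcript length, counts were set side by side without dividing by length. Whether a read stands for the same amount of RNA in each gene was not tested. The limit from the overlapping neighbours named above holds for this order too. In the control library the order from the highest count was *Ccnd2*, *Ccnd3*, *Cdk4*, *Cdkn2d*, *Cdkn1b*, *Rb1*, *Rbl2*, *Rbl1*, *Cdk6* and *Cdkn2c*. The neighbours *Cdkn2d* and *Cdkn1b* did not differ beyond counting error there, with a read ratio of 1.07 (95% interval 0.976 to 1.17), while *Rbl2* and *Rbl1* differed barely, with a read ratio of 1.14 (95% interval 1.00 to 1.30). In the RV-Cre library *Cdkn1b* stood above *Cdkn2d*, and *Rbl2* above *Rb1*. There, *Cdk4*, *Cdkn1b* and *Cdkn2d* had nearly the same counts, at 1245, 1154 and 1103 reads, and neither neighbouring pair differed beyond counting error. The read ratio of *Rbl2* to *Rb1* in that library was 1.56 (95% interval 1.36 to 1.78).

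Ratios of reads within a library do not depend on the scaling between libraries, and 10 pairs of genes were compared in this way. The counts of *Ccnd3*, *Cdk4*, *Rb1* and *Rbl2* are used as deposited here, with the limit from their overlapping neighbours named above. *Ccnd2* was slightly higher relative to *Ccnd3*, with 8.13 (control) and 9.36 (RV-Cre) reads of *Ccnd2* per read of *Ccnd3*, a change of 1.15-fold (95% interval 1.09 to 1.21). *Cdk6* had 0.104 and 0.0498 reads per read of *Cdk4*, a change by a factor of 0.480 (95% interval 0.352 to 0.647), and its share of the reads of both kinases was 9.41% (95% Clopper-Pearson interval 8.20 to 10.7) and 4.74% (3.66 to 6.04). *Cdkn2c* had 0.0845 and 0.0354 reads per read of *Cdkn2d*, a factor of 0.419 (95% interval 0.276 to 0.625). In both families the rarer gene had the lower share in the RV-Cre library. Among the pocket proteins, *Rbl1* per *Rbl2* changed from 0.874 to 0.463, a factor of 0.530 (95% interval 0.433 to 0.648), and *Rb1* per *Rbl2* from 1.18 to 0.642, a factor of 0.544 (95% interval 0.453 to 0.653). *Rbl1* per *Rb1* gave 0.740 and 0.721, a factor of 0.974 (95% interval 0.791 to 1.20), which includes no change. *Rbl2* made up 32.7% (30.4 to 35.2) of pocket protein reads with the control virus and 47.5% (44.6 to 50.4) with RV-Cre.

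Inhibitors were also set against D-type cyclins and their kinases. *Cdkn1b* had 0.0309 and 0.0418 reads per read of *Ccnd2*, a factor of 1.35 (95% interval 1.24 to 1.48), and 0.251 and 0.391 reads per read of *Ccnd3*, a factor of 1.56 (95% interval 1.41 to 1.72). *Cdkn2d* had 0.526 and 0.886 reads per read of *Cdk4*, a factor of 1.68 (95% interval 1.51 to 1.89). These ratios were higher in the RV-Cre library beyond counting error. For *Cdkn2c* against *Cdk6*, both of them lower in that library, the factor was 1.47 with an interval from 0.887 to 2.42, so that no change in this ratio was detectable at this depth.

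**Figure D4:**
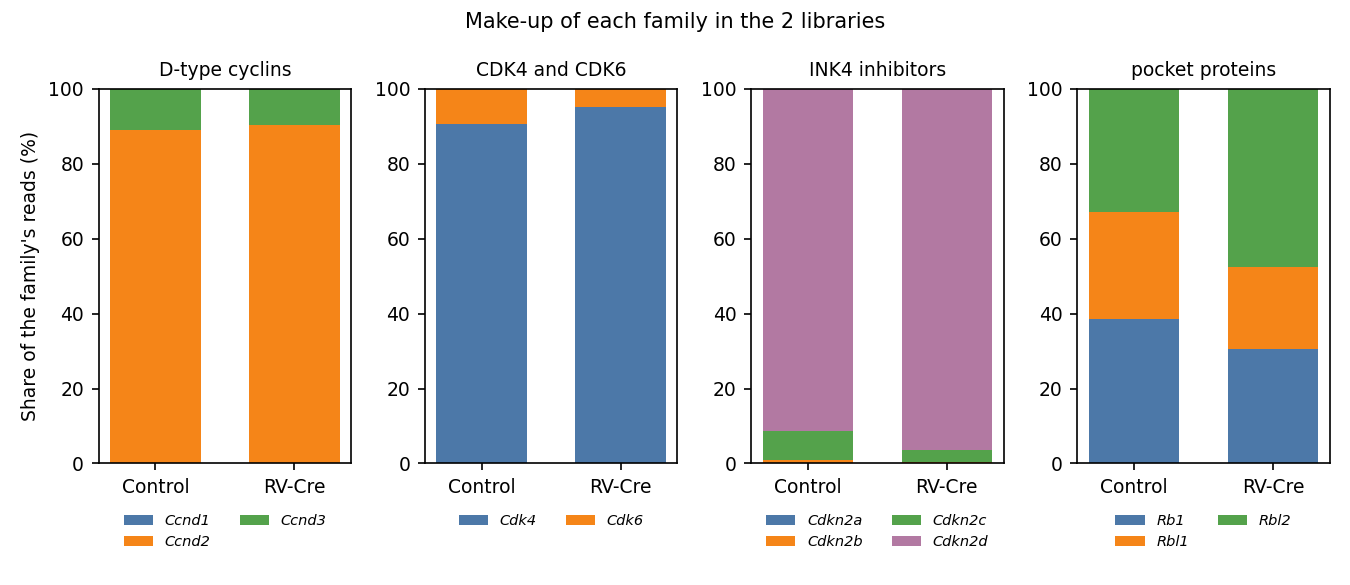
Share of each family's reads (%) held by each gene in the control and RV-Cre libraries, 1 stacked bar per library, for the D-type cyclins, CDK4 and CDK6, the INK4 inhibitors and the pocket proteins. *Rbl2* widens from 32.7% to 47.5% of pocket protein reads and *Cdk6* narrows from 9.41% to 4.74%, while *Ccnd1*, *Cdkn2a* and *Cdkn2b* are too rare to be seen clearly.

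Genes that act beside or downstream of these regulators were drawn up in 7 lists. At least 2-fold lower with RV-Cre were 6 of 10 E2F and DP factors and 13 of 19 replication genes, beside 12.3% of all genes compared. At least 2-fold higher were 6 of the 14 FOXO and quiescence genes past the expression minimum, beside 14.2%. Of 12 other G1 and S phase cyclins and CDKs with their regulators, 5 were at least 2-fold lower, beside 12.3% of all genes compared (2 with scaling to *Gapdh*, beside 6.40%), and 1, *Ccnd1*, was at least 2-fold higher, beside 14.2%. The same TMM shares of 12.3% lower and 14.2% higher stand beside the 2-fold calls of the next lists. The median log2 ratio over this list was -0.92. *Cdk1*, the kinase of mitotic entry, had 2971 and 397 reads and a log2 ratio of -2.73, and *Ccne2*, a cyclin E gene that activates CDK2, had 2145 and 562 reads and a log2 ratio of -1.76. The other 3 at least 2-fold lower, named after their values were seen, were *Cdk2*, *Ccna2* and *Ccne1*. Of the 10 E2F and DP factors, 6 were at least 2-fold lower and 0 higher, with a median of -1.21. The interval lay below 1 for 8, beside 38.1% of all genes, and above 1 for 1, beside 36.7%. The gene above 1 was *E2f5*, named after its value was seen, with 1002 and 1358 reads and a ratio of 1.53 (95% interval 1.41 to 1.66). *E2f4*, whose product was named with *Rbl2* above, was among those at least 2-fold lower. It had 1431 and 518 reads and a ratio of 0.408 (95% interval 0.369 to 0.452), and was also named after its value was seen. The lowest were *E2f7* with 353 and 47 reads (log2 ratio -2.71) and *E2f8* with 349 and 60 reads (log2 ratio -2.35), which encode repressive E2F factors that E2F itself induces. Of 8 genes for the MuvB core, B-Myb and their partners, 4 were at least 2-fold lower and 0 higher, led by *Lin52* with 95 and 18 reads (log2 ratio -2.17) and *Lin9* with 295 and 117 reads (log2 ratio -1.15). The interval lay below 1 for 5, beside 38.1% of all genes, and above 1 for 1, beside 36.7%. Here the gene above 1 was *Mybl1*, named after its value was seen, with 60 and 103 reads and a ratio of 1.94 (95% interval 1.40 to 2.71). With quantile normalization the counts of 4 lower and 0 higher became 2 and 0, beside 13.4% and 12.5% of all genes. The counts became 2 and 1 with library totals without *Rn45s*, beside 10.5% and 15.95%, and 1 and 1 with scaling to *Gapdh*, beside 6.40% and 24.3%. *Foxm1* and *Mybl2*, named after their values were seen, lay near the threshold at -1.07 and -1.04.

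All 19 E2F-responsive replication genes had a counting interval wholly below a ratio of 1, beside 38.1% of all genes compared. Of these genes, 13 were at least 2-fold lower, beside 12.3% of all genes, with a median log2 ratio of -1.45. *Orc1*, named after its value was seen, lay just short of the threshold at a log2 ratio of -0.9996. The count was 14 with DESeq2 size factors (beside 12.6% of all genes), library totals (12.5%) and a pseudocount of 0.1 (12.5%). *Rrm2*, the regulated subunit of ribonucleotide reductase, had 2863 and 480 reads (log2 ratio -2.40), and *Cdc45*, a part of the replicative helicase, had 792 and 155 reads (log2 ratio -2.17). The 12 genes for turnover of p27 and D cyclins had a median of -0.10 (0.32 with scaling to *Gapdh*) and 1 gene called, *Cks1b*, with 3658 and 823 reads and a log2 ratio of -1.98. Its product helps the ubiquitin ligase SKP2 to recognise p27. Of the 15 FOXO factors and FOXO-responsive quiescence genes, 14 passed the minimum, with 6 at least 2-fold higher, beside 14.2% of all genes, 0 at least 2-fold lower and a median of 0.75. The counting interval lay above 1 for 10 of the 14, beside 36.7% of all genes, and below 1 for 2, beside 38.1%. These 2, named after their values were seen, were *Txnip* with 609 and 315 reads, a ratio of 0.584 (95% interval 0.508 to 0.670), and *Ccng2* with 165 and 91 reads, a ratio of 0.622 (95% interval 0.476 to 0.809). *Klf2*, a factor that keeps T cells at rest, had 1175 and 5668 reads (log2 ratio 2.44). Within this list *Foxo1* itself had 3498 and 4142 reads, a log2 ratio of 0.42, and *Foxo3* had 7 and 0 reads, under the minimum. These 2 genes were picked out after their values were seen. The lists were drawn up with earlier results of these data known and are no independent evidence of a direction.

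**Figure D5:**
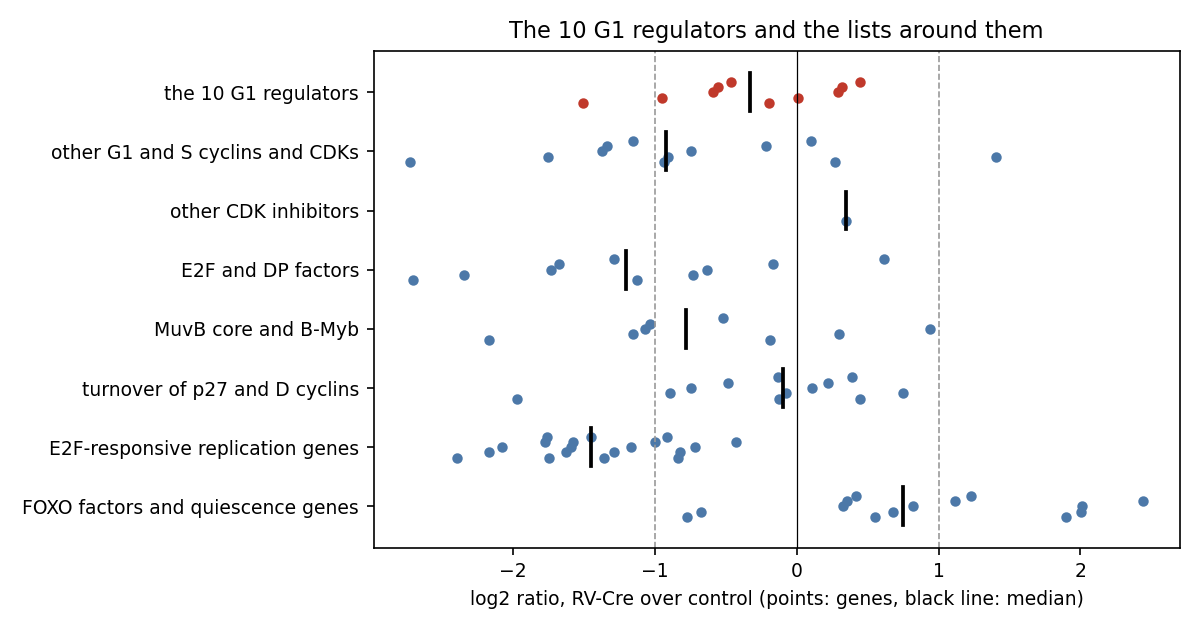
Log2 ratio of the RV-Cre library over the control library for each gene past the expression minimum (points) in the 10 G1 regulators (red) and 7 lists around them (blue), with the median of each as a black line and dashed lines at 2-fold. The median of the regulators, -0.33, lies between those of the replication genes at -1.45 and the FOXO and quiescence genes at 0.75.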

How the data were processed

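Naïve CD4 T cells of *Fak* fl/fl mice received either RV-Cre or the control retrovirus, and 500 ng of RNA went into 1 QuantSeq 3′ library per condition. The values the authors deposited are raw counts of reads per gene symbol, without normalization or molecular identifiers. The submitters' processing notes list bcl2fastq 2.20.0.422, Bowtie2, bedtools and the mm10 build, with no roles. Filters, annotation and the use of strand are not given in the sources used here. The groups were taken from the sample titles.

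Of 23282 rows, 79 shared a symbol with another row, and none of these was used for a named gene or list. TMM factors came from edgeR 4.0.16 in R 4.3.3 (size factors 1.06 and 0.941). Values were compared as log2(normalized count + 1), with a minimum of 4 in at least 1 library and a fold threshold of 2. Ratio intervals at 95% were derived from the Clopper-Pearson interval (exact) of a gene's reads in RV-Cre among its reads in both libraries, and those of gene pairs are exact conditional odds ratio intervals (scipy 1.17.1). They cover counting error only. Both were tested on simulated data. No test across genes was run. The 10 genes and all lists were chosen with earlier results of these data known. The rule for naming genes beyond the 10 took *Ptk2*, *Ccnd1*, *Cdkn1a* and, in each list, up to 2 with the largest rise and up to 2 with the largest fall among those called. Other list genes were named after their values were seen, markers and overlapping neighbours for the limits they set, and the remaining CDK inhibitors to complete that family. Coordinates and promoters are from RefSeq on GRCm38.p6 (mm10), strand and overlaps from GENCODE M21. All 10 symbols matched, as did 99.5% of rows.

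The alternatives were other scalings (DESeq2 1.42.0 size factors, library totals with and without *Rn45s*, quantile normalization), pseudocounts of 0.1 and 10, other minimums and folds, and a 99% interval. Scaling to *Gapdh* and the comparison with overlapping genes were chosen after seeing the data. Some genes of the lists are given only within counts, and some results that the naming rule would give are not reported here.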

Additional observations from a re-analysis of the deposited data

How the results depend on the processing

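No paired analysis was possible because neither condition has a second library. For single genes, 70 values were recomputed under other scalings and pseudocounts, of which 57 stayed within the counting interval, 12 moved beyond it (*Ccnd2* and *Ccnd3* with library totals without *Rn45s* and with quantile normalization, and 8 genes, all but *Ccnd3* and *Cdkn2c*, with scaling to *Gapdh*) and 1 reversed. The reversed value was that of *Ccnd3*, at 0.23 with scaling to *Gapdh*. That scaling, chosen after seeing the data and resting on 956 and 634 reads of *Gapdh*, shifted the median log2 ratio of all genes to 0.43 and that of the 10 regulators to 0.091, which is -0.34 relative to all genes, beside -0.32 with TMM. The median of the 10 was -0.24 with library totals without *Rn45s*, -0.22 with quantile normalization and -0.091 with a log2 minimum of 8, which leaves out *Cdk6* and *Cdkn2c*. With quantile normalization, 2 regulators were at least 2-fold lower, *Cdk6* and *Cdkn2c* (13.4% of all genes). The count of lower regulators was 0 with a minimum of 8 (9.73%), 3 with a fold of 1.5 (22.9%) and 0 with a fold of 3 (5.52%). With library totals without *Rn45s* (15.95% of all genes higher and 10.5% lower), the MuvB list had 1 gene higher and 2 lower, and with quantile normalization 2 lower. With scaling to *Gapdh* (24.3% of all genes higher and 6.40% lower) the medians were -0.51 for other cyclins and CDKs (1 higher and 2 lower), 0.76 for other CDK inhibitors (1 gene), -0.79 for E2F and DP factors (1 higher and 4 lower), -0.36 for MuvB (1 higher and 1 lower), 0.32 for turnover (1 higher and 1 lower), -1.04 for replication genes (10 lower) and 1.17 for FOXO genes (8 higher). With a 99% interval, the same 9 regulators excluded a ratio of 1. All 10 balances between pairs stayed within their intervals with 10 added to each count. The cause of the shifts was not tested. The depth of these libraries limits *Cdk6* and *Cdkn2c* most.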
